A study of Mus musculus with 6 samples.

Results

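Mitochondrial fatty acid oxidation enzymes were examined in pieces of articular cartilage with the underlying bone, cut from the tibial plateau of mice with and without the WNT antagonist Frzb. The enzymes were taken from a list of 10 genes, Acadl, Acadm, Acadvl, Acads, Hadha, Hadhb, Hadh, Cpt1a, Cpt1b and Cpt2, through every probe set assigned to a single one of these genes. This gave 17 of the 30618 probe sets and 9 of the 13817 genes with a probe set of their own. Cpt1b, the muscle form of carnitine palmitoyltransferase I, was named on 1 probe set that is also assigned to other genes, so no value is given for it.

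There were 6 Affymetrix mouse arrays, each hybridised with RNA from the tibial cartilage and subchondral bone of a single joint of a male mouse aged 6 weeks on the C57Bl/6J background. The wild-type group held 3 mice (titled 6-1, 8-1 and 9-1), and 3 mice were labelled Frzb-/-, a deletion present in every cell (titled 6, 14 and 17). The tests compared the 3 wild-type mice with Frzb-/- mice 14 and 17, and mouse 6 is given apart. The study's text says that a presumed knockout clustered with the wild-types, turned out heterozygous on re-genotyping and was left out, without its title. No mouse was genotyped again here. All values are log2 expression values from Robust Multiarray Averaging (RMA), and differences are Frzb-/- (14 and 17) minus wild-type on that log2 scale.

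Long-chain fatty acids enter the mitochondrion as carnitine esters. Carnitine palmitoyltransferase I on the outer membrane makes the ester and is the step inhibited by malonyl-CoA, and carnitine palmitoyltransferase II on the inner membrane restores the acyl-CoA. Each turn of β-oxidation then starts with an acyl-CoA dehydrogenase matched to chain length and goes on through hydration, a second dehydrogenation and thiolysis, giving acetyl-CoA for the tricarboxylic acid cycle. Muscle, heart, liver and brown fat are rich in these enzymes, and their genes are known targets of the PPAR nuclear receptors.

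None of the 9 enzymes changed between the groups by the study's thresholds (limma, adjusted p under 0.01 and a log2 difference above 1), nor at adjusted p under 0.05. All 9 differences were positive, between 0.12 and 0.53, with a median of 0.27 against 0.02 over all 30618 probe sets. The largest were those of Acads and Cpt1a, both 0.53, or 1.45-fold. Each enzyme varied more within the groups than most probe sets. At the brightest probe set of each gene, 8 of the 9 were highest in 6-1 among the wild-types and lowest of all in mouse 6. Cpt1a was the exception.

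The starts of Hadha and Hadhb, which encode both subunits of the mitochondrial trifunctional protein, lie head to head 272 bases apart in the RefSeq annotation of GRCm38.p6. The stretch between them that belongs to the upstream windows of both genes, and the stretch upstream of Cpt1a, the enzyme whose pattern stood apart, are shown with the GC box (GGGCGG) and the nuclear receptor core site (AGGTCA) in capitals. On the strand shown these appear as GGGCGG or CCGCCC and as AGGTCA or TGACCT.
Hadha and Hadhb, chr5:30155003-30155230, plus strand: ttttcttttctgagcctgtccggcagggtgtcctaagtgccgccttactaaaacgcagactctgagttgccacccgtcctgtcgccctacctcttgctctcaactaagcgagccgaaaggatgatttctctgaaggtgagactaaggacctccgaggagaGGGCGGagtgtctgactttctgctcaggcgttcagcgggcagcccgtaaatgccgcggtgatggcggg
Cpt1a, chr19:3323051-3323300, plus strand: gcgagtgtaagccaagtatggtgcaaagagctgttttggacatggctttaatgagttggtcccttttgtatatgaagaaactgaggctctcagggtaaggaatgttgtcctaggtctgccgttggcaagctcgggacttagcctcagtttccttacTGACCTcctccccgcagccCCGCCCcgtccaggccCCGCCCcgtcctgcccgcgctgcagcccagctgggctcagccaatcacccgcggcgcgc
The shared stretch held 1 GC box and 0 core sites, and the Cpt1a stretch held 2 GC boxes and 1 core site. In windows from 250 bases before to 50 bases after the start, read on both strands, GGGCGG was present for 7 of the 9 enzymes and for 35.7% of all 32851 windows. AGGTCA was present for 3 of 9 (Acadm, Acadvl and Cpt1a) and for 16.3% of all windows. A direct repeat of AGGTCA spaced by 1 base, whose copies also count as AGGTCA, was found for 0 of 9 enzymes and for 0.0396% of all windows.

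Frzb itself, the deleted gene, was read beside the labels. Probe set 1416658_at measured 10.02, 10.79 and 10.16 in wild-type mice 6-1, 8-1 and 9-1, 7.02 and 6.42 in Frzb-/- mice 14 and 17, and 6.93 in mouse 6. The level was thus low in all 3 mice labelled Frzb-/-, so it did not set apart a heterozygous mouse among them. Medians of the arrays lay between 7.32 and 7.45. The piece is a mixture of cartilage, bone, marrow and attached tissue, and markers of chondrocytes (12 of 12 listed measured, median level per array 12.79 to 13.41) and of skeletal muscle (13 of 14 measured, 12.97 to 14.17) were bright on every array. In such bulk RNA, fewer cells of a type and less RNA per cell cannot be told apart.

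For the carnitine shuttle, Cpt1a (1460409_at) measured 8.89, 9.08 and 9.63 in wild-type mice 6-1, 8-1 and 9-1, 9.93 and 9.53 in Frzb-/- mice 14 and 17, and 9.49 in mouse 6. Both Frzb-/- values lay above those of wild-type 6-1 and 8-1, but wild-type 9-1 lay above Frzb-/- 17, so the groups overlapped. The means were 9.20 ± 0.39 (SD, n = 3) and 9.73 ± 0.28 (SD, n = 2). The difference was 0.53 (SE 0.24, 95% interval -0.04 to 1.10), with an adjusted p of 0.150 by limma. The other Cpt1a probe sets, 1434866_x_at and 1438156_x_at, gave 0.50 and 0.35 (limma, adjusted p = 0.363 and 0.621). All 3 Cpt1a probe sets ordered the mice alike within each group, with wild-type 9-1 highest and 6-1 lowest among the wild-types and Frzb-/- 14 above 17. The difference depended on single mice: it was 0.75 without wild-type 9-1 (limma, adjusted p = 0.0333), but 0.33 without Frzb-/- 14 (limma, adjusted p = 0.472) and 0.38 without wild-type 6-1 (limma, adjusted p = 0.302).

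Cpt2 (1416772_at), the inner-membrane enzyme, measured 9.88, 9.57 and 9.31 in the wild-types, 9.84 and 9.88 in Frzb-/- 14 and 17, and 9.08 in mouse 6. Both Frzb-/- mice lay at the level of the highest wild-type. The difference was 0.27 (SE 0.18, 95% interval -0.16 to 0.70; limma, adjusted p = 0.311).

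Among the acyl-CoA dehydrogenases, Acads (1460216_at), which acts on short chains, measured 8.31, 7.98 and 7.81 in the wild-types, 8.32 and 8.81 in Frzb-/- 14 and 17, and 7.70 in mouse 6. The groups did not overlap, although Frzb-/- 14 exceeded wild-type 6-1 by only 0.01. The means were 8.03 ± 0.25 (SD, n = 3) and 8.56 ± 0.35 (SD, n = 2), a difference of 0.53 (SE 0.20, 95% interval 0.05 to 1.02). The limma p was 0.0358 before adjustment and 0.101 after it, so Acads did not pass the test.

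Acadvl (1424184_at), the very long-chain enzyme of the inner membrane, measured 11.15, 10.59 and 10.33 in the wild-types, 10.83 and 11.19 in Frzb-/- 14 and 17, and 10.03 in mouse 6. Acadm (1415984_at), the medium-chain enzyme, measured 11.33, 10.88 and 10.53, then 11.01 and 11.33, and 10.45 in the same order of mice. Acadl (1448987_at), the long-chain enzyme, measured 11.16, 10.86 and 10.67, then 10.83 and 11.19, and 10.34. In each of these 3 genes Frzb-/- 14 fell between the wild-type values and Frzb-/- 17 matched or slightly exceeded wild-type 6-1. The differences were 0.32 (SE 0.25) for Acadvl, 0.26 (SE 0.24) for Acadm and 0.12 (SE 0.19) for Acadl, with adjusted p of 0.386, 0.462 and 0.683 (limma).

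The trifunctional protein carries out the later steps for long chains, with the hydratase and long-chain hydroxyacyl-CoA dehydrogenase on the α subunit and the thiolase on the β subunit. Hadha (1452173_at), the α subunit, measured 10.80, 10.58 and 10.28 in the wild-types, 10.54 and 10.82 in Frzb-/- 14 and 17, and 10.19 in mouse 6. Hadhb (1426522_at), the β subunit, measured 11.14, 10.73 and 10.39, then 10.84 and 11.19, and 10.33. Both genes, which share the upstream stretch printed above, were highest in Frzb-/- 17 and wild-type 6-1 and lowest in wild-type 9-1 and mouse 6, and Frzb-/- 14 and wild-type 8-1 changed places between them. Their differences were 0.12 (SE 0.18; limma, adjusted p = 0.649) and 0.26 (SE 0.23; limma, adjusted p = 0.443). The probe sets of Hadhb did not behave alike: 1437172_x_at spanned only 10.75 to 10.80 in the wild-types and 1442732_at was lowest in wild-type 6-1 at 6.53. Their differences were 0.04 and 0.03.

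Hadh (1455972_x_at), the dehydrogenase for shorter hydroxyacyl chains, measured 12.43, 12.09 and 11.90 in the wild-types, 12.44 and 12.39 in Frzb-/- 14 and 17, and 11.77 in mouse 6. The Frzb-/- mice lay at the top of the wild-type range. The difference was 0.27 (SE 0.17, 95% interval -0.13 to 0.68; limma, adjusted p = 0.286). For 1460184_at it was 0.36 (adjusted p = 0.237), and for the dim 1436756_x_at, whose groups did not overlap, 0.14 (adjusted p = 0.398). The remaining probe sets, 1 of Acadl and 1 of Cpt2, were dim as well, with differences of 0.04 and 0.12.

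**Figure D1:**
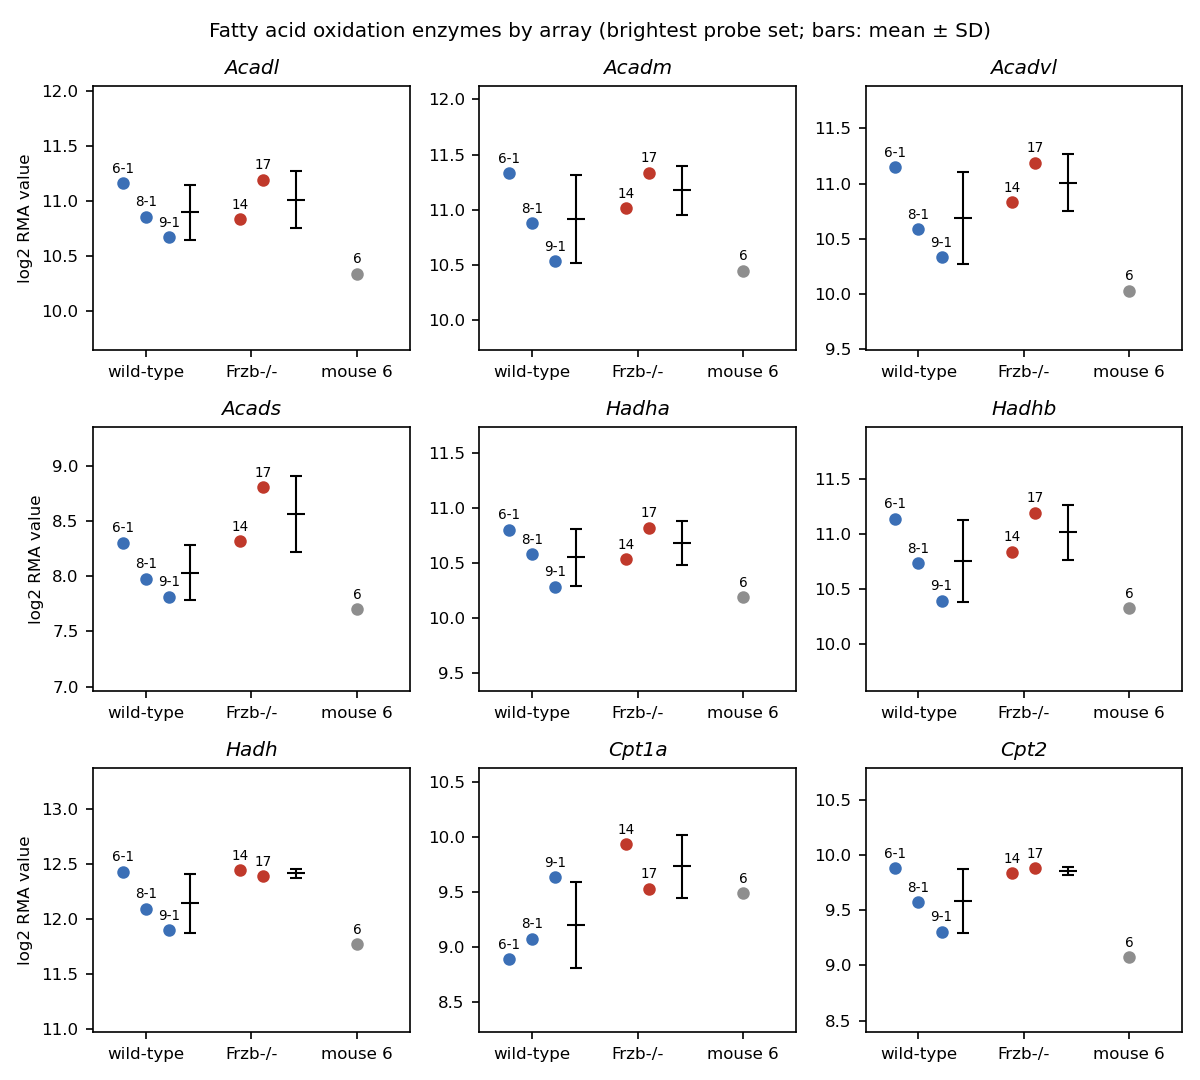
Log2 RMA value of each of the 9 enzymes at its brightest probe set, with a point for each mouse (wild-type blue, Frzb-/- 14 and 17 red, mouse 6 grey) and bars for mean ± SD of the wild-type (n = 3) and Frzb-/- (n = 2) groups. In 8 panels wild-type 6-1 is the highest wild-type and mouse 6 the lowest of all, and Cpt1a is the exception.

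By the study's thresholds 0 of 9 enzymes and 0 of 17 probe sets were called higher or lower, where 2.34% of all probe sets were called higher and 5.09% lower. At adjusted p under 0.05 the count was again 0 in either direction, against 11.7% higher and 14.8% lower over all probe sets (limma). At an unadjusted p under 0.05, 1 of 9 enzymes (Acads) was higher and 0 lower, against 18.4% and 20.8%. The groups did not overlap for 1 of 9 enzymes in the higher direction and 0 in the lower, where 27.5% of all probe sets were higher without overlap and 28.1% lower. The enzymes' residual SD had a median of 0.29 against 0.16 over all probe sets, and each enzyme stood between the 71.6th and the 92.9th percentile of it. The limma intervals use a spread drawn toward that of all probe sets, which is smaller than each enzyme's own. With 5 mice, the 95% intervals of the 9 differences reached upper ends of 0.56 to 1.10. A rise of up to these sizes could thus not be told from none, apart from Acads, whose interval began at 0.05 with this smaller spread.

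**Figure D2:**
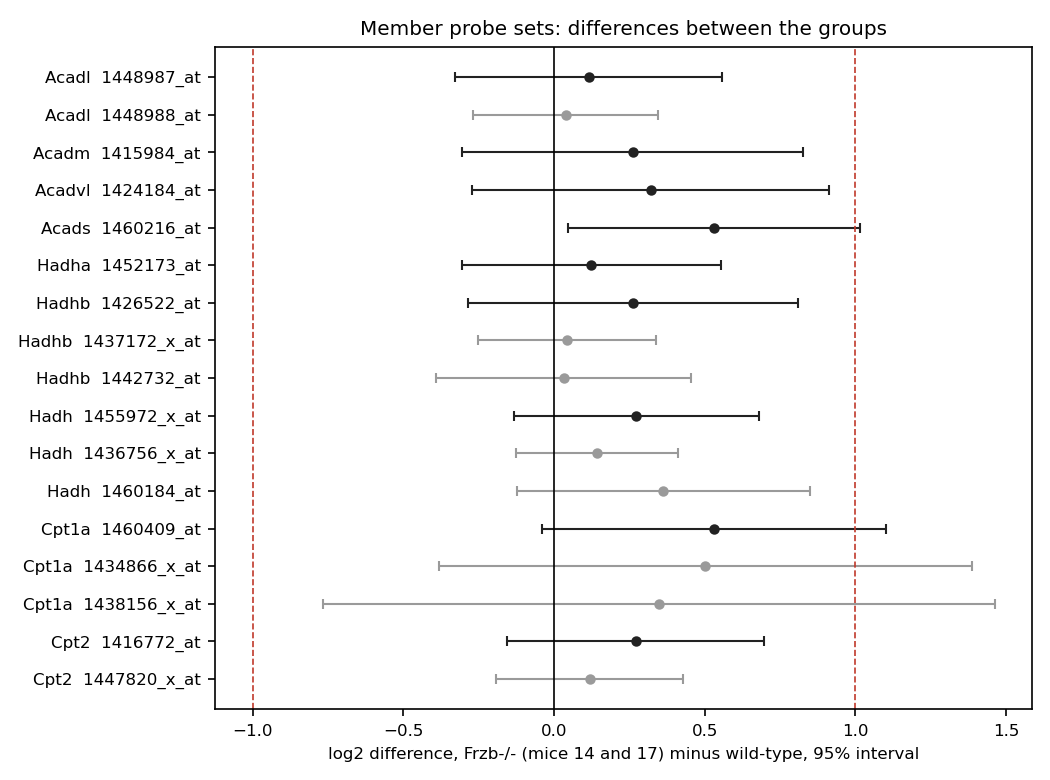
Log2 difference, Frzb-/- (14 and 17) minus wild-type, with its 95% interval from limma for each of the 17 probe sets, black for the brightest probe set of a gene and grey for the others; dashed lines mark log2 differences of -1 and 1. All 17 points lie above 0, and every interval but that of Acads includes 0.

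Partner enzymes were also set against each other within a mouse, which cancels what moves both. The difference between groups was 0.14 for Hadhb minus Hadha, -0.20 for Acadl minus Acadvl and 0.27 for Acads minus Acadm. Exact permutation tests (two-sided, over 10 regroupings of 3 against 2 mice, 3 pairs) gave p = 0.3, 0.2 and 0.2, all 0.3 after adjustment, and 0.1 is the smallest p this design allows.

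The order of the mice was then compared, as a description chosen after the values were seen. At the brightest probe set of each gene, 8 of the 9 enzymes were highest in 6-1 and lowest in 9-1 among the wild-types. Of all probe sets, 32.3% and 40.0% were so. The other Hadhb probe sets had 6-1 lowest and 9-1 highest, at 10.75 and 10.80 for 1437172_x_at and 6.53 and 6.92 for 1442732_at. Frzb-/- 17 exceeded 14 for 7 of 9 (45.0% of all probe sets), and mouse 6 was lowest of the 6 for 8 of 9 (16.2%). All 4 features met in 7 of 9 enzymes and in 5.47% of all probe sets. They also met in 10 of 15 other mitochondrial β-oxidation genes and in 13 of 15 tricarboxylic acid cycle genes. The same held for 11 of 13 skeletal muscle markers and 4 of 6 measured brown adipocyte markers. They met in 0 of 12 chondrocyte and 0 of 8 adipocyte markers of the general list. Yet the adipocyte markers were highest in 6-1 and lowest in 9-1 among the wild-types in 8 of 8. Mouse 6 was lowest of the 6 for 6 of these 8, while Frzb-/- 17 exceeded 14 in 0 of 8.

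Mouse 6 differed from the wild-type mean by between -0.66 (Acadvl) and -0.33 (Acads) for these 8 enzymes and lay below every wild-type mouse, without a test since it is 1 array. Its Cpt1a value was 0.29 above the wild-type mean and inside the wild-type range. The mean level of the 13 muscle markers moved with this order, at 13.90, 13.50 and 13.20 in wild-type 6-1, 8-1 and 9-1, 13.43 and 13.90 in Frzb-/- 14 and 17, and 12.56 in mouse 6. The median level of the 8 enzymes other than Cpt1a was 11.14, 10.66 and 10.36, then 10.83 and 11.19, and 10.26 in the same order of mice. Between the groups 0 of 13 muscle markers passed either rule (limma), with a median difference of 0.16. Acta1, skeletal muscle actin, was at 0.16 (limma, adjusted p = 0.487).

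With the mean of the muscle markers as a covariate, a fit added after the values were seen, the difference of Cpt1a was 0.66 (95% interval 0.35 to 0.97; limma, adjusted p = 0.0113) and that of Acads 0.42 (95% interval 0.15 to 0.70; limma, adjusted p = 0.0327). The other 7 enzymes then differed by 0.02 to 0.21, with adjusted p between 0.294 and 0.908. Both calls at adjusted p under 0.05 rest on this covariate and on 5 mice, and neither was made without it with all 5 mice.

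**Figure D3:**
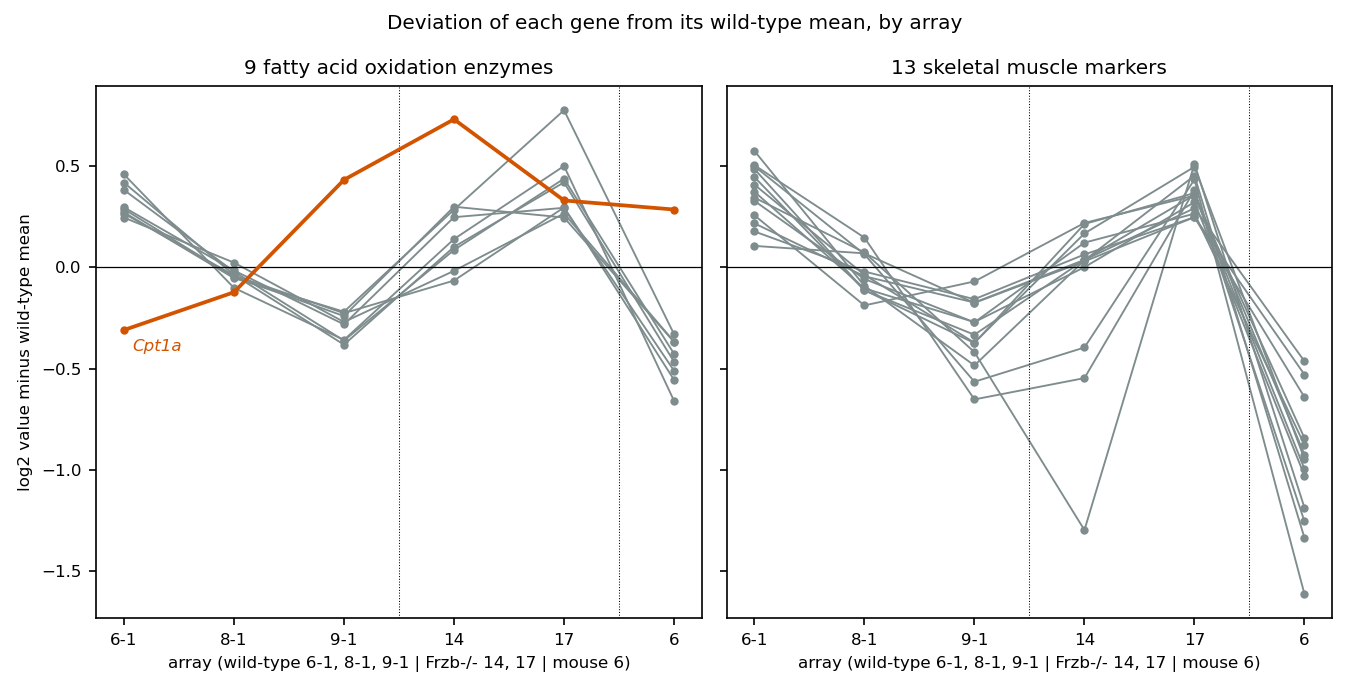
Log2 value minus the wild-type mean of the same gene in each of the 6 mice, for the 9 enzymes (left, Cpt1a in orange) and the 13 measured skeletal muscle markers (right), with a line joining the values of 1 gene and dotted lines between the groups. Enzymes other than Cpt1a and muscle markers are high in wild-type 6-1 and Frzb-/- 17 and low in wild-type 9-1 and mouse 6, whereas Cpt1a is lowest in wild-type 6-1.

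Around these enzymes, the 15 other genes of mitochondrial β-oxidation gave 0 calls in either direction by either rule (limma), with a median difference of 0.30. The electron-transferring flavoprotein that takes electrons from the acyl-CoA dehydrogenases was at 0.30 for Etfa (adjusted p = 0.324) and -0.10 for Etfb (adjusted p = 0.671). The 15 tricarboxylic acid cycle genes measured also gave 0 calls, with a median of 0.19. Malate dehydrogenase Mdh2 was at 0.42 (adjusted p = 0.103) and citrate synthase Cs at 0.21 (adjusted p = 0.479). Of 4 ketone body genes, 1 rose at adjusted p under 0.05 (limma), and the thiolase Acat1 was at 0.29 (adjusted p = 0.213) and the transferase Oxct1 at 0.27 (adjusted p = 0.212).

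Some genes of the lists for fatty acid uptake and for carnitine transport passed adjusted p under 0.05. Supply of fatty acids to the 9 enzymes was not measured. Of 12 uptake, binding and activation genes, 5 rose and 1 fell at adjusted p under 0.05, and 0 passed the study's thresholds (limma). Fabp4, a fatty acid binding protein of adipocytes, rose by 0.76 (adjusted p = 0.0143) and Lpl, lipoprotein lipase, by 0.60 (adjusted p = 0.0319). Leaving out any 1 mouse kept the differences at 0.66 to 0.89 for Fabp4 and 0.49 to 0.73 for Lpl. Of the wild-type mice, leaving out 8-1 lost the call for Fabp4 (limma, adjusted p = 0.0572). Leaving out 8-1 or 9-1 lost it for Lpl (limma, adjusted p = 0.102 and 0.0694). Neither call was kept without Frzb-/- 14 or without 17, fits that leave 1 Frzb-/- mouse. The differences there were 0.73 and 0.80 for Fabp4 and 0.62 and 0.59 for Lpl. Over all probe sets higher calls by the study's thresholds also fell, from 717 to 298 without wild-type 8-1. With all 3 labelled mice the differences were 0.39 for Fabp4 and 0.12 for Lpl, and 0 probe sets of the array passed the study's thresholds. Of 6 carnitine transport and exchange genes, 3 rose at adjusted p under 0.05, while the inner-membrane carrier Slc25a20 was at 0.39 (adjusted p = 0.0905) and carnitine acetyltransferase Crat at 0.33 (adjusted p = 0.310).

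Of 15 regulators of the pathway, 2 rose at adjusted p under 0.05, and 1 of them, Acaca, passed the study's thresholds (limma). Over all probe sets 11.7% were higher at adjusted p under 0.05 and 2.34% by the study's thresholds. These shares stand beside the counts of every list here, and the count of regulators at adjusted p under 0.05 lay near its share. Acaca encodes 1 of the acetyl-CoA carboxylases, which make malonyl-CoA, the inhibitor of carnitine palmitoyltransferase I. Acaca measured 9.48, 9.51 and 9.43 in the wild-types, 10.85 and 10.25 in Frzb-/- 14 and 17, and 8.93 in mouse 6. Its difference was 1.07 (limma, adjusted p = 0.0073), and both Frzb-/- mice lay well above all wild-types. Acacb, another carboxylase gene of the list, was at 0.78 and was not called (limma, adjusted p = 0.0992). The pyruvate dehydrogenase kinase Pdk4 was at -0.31 (adjusted p = 0.382), and the AMP-activated kinase subunit Prkaa2 at 0.23 (adjusted p = 0.718).

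Of 11 fatty acid synthesis genes, 3 rose at adjusted p under 0.05 and 2 of these by the study's thresholds: fatty acid synthase Fasn at 1.13 (adjusted p = 0.0089) and the desaturase Scd1 at 1.02 (adjusted p = 0.0036), with Scd2 at -0.34 (adjusted p = 0.218). Of 10 peroxisomal β-oxidation genes, 4 rose at adjusted p under 0.05 and 1, the thiolase Acaa1b, by the study's thresholds, at 1.65 (adjusted p = 0.0022). Acaa1b was dim, at 4.46, 4.04 and 4.56 in the wild-types, 6.21 and 5.80 in Frzb-/- 14 and 17, and 4.49 in mouse 6, all below the array medians. The peroxisomal transporter Abcd3 rose by 0.41 (adjusted p = 0.0439), a call lost without any 1 of the 5 mice (adjusted p = 0.0706 to 0.157) and with array weights (adjusted p = 0.0532), and the carrier protein Scp2 was at 0.25 (adjusted p = 0.243). Calls by the study's thresholds were lost without any 1 of the 5 mice for Fasn (0.89 to 1.36) and Scd1 (0.85 to 1.18), without any 1 mouse but Frzb-/- 17 for Acaca (0.77 to 1.37), whose mean over its probe sets also missed them at 0.86, and without either Frzb-/- mouse for Acaa1b (1.45 to 1.85 over all 5).

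Markers of other cells also moved between the groups. Of 8 measured adipocyte markers (12 listed), 4 rose by the study's thresholds (limma), with median levels per mouse of 8.80 to 9.59 in the wild-types, 10.29 to 10.53 in Frzb-/- 14 and 17, and 8.61 in mouse 6. Fibroblast markers rose in 6 of 9, endothelial markers in 1 of 8 and brown adipocyte markers in 1 of 6, while 9 of 9 erythroid, 10 of 11 neutrophil, 4 of 8 B cell and 2 of 9 osteoblast and osteocyte markers fell. By the same thresholds 0 of 12 chondrocyte and 0 of 12 macrophage and osteoclast markers were called (limma), and 1 of each list rose at adjusted p under 0.05. At that looser rule 7 of 8 adipocyte, 9 of 9 fibroblast, 5 of 8 endothelial, 1 of 6 brown adipocyte and 1 of 9 osteoblast and osteocyte markers rose. This compares with 11.7% of all probe sets. By it 9 of 9 erythroid, 10 of 11 neutrophil, 5 of 8 B cell and 3 of 9 osteoblast and osteocyte markers fell, against 14.8%. The part of these shifts in the differences of the fatty acid genes was not tested.

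**Figure D4:**
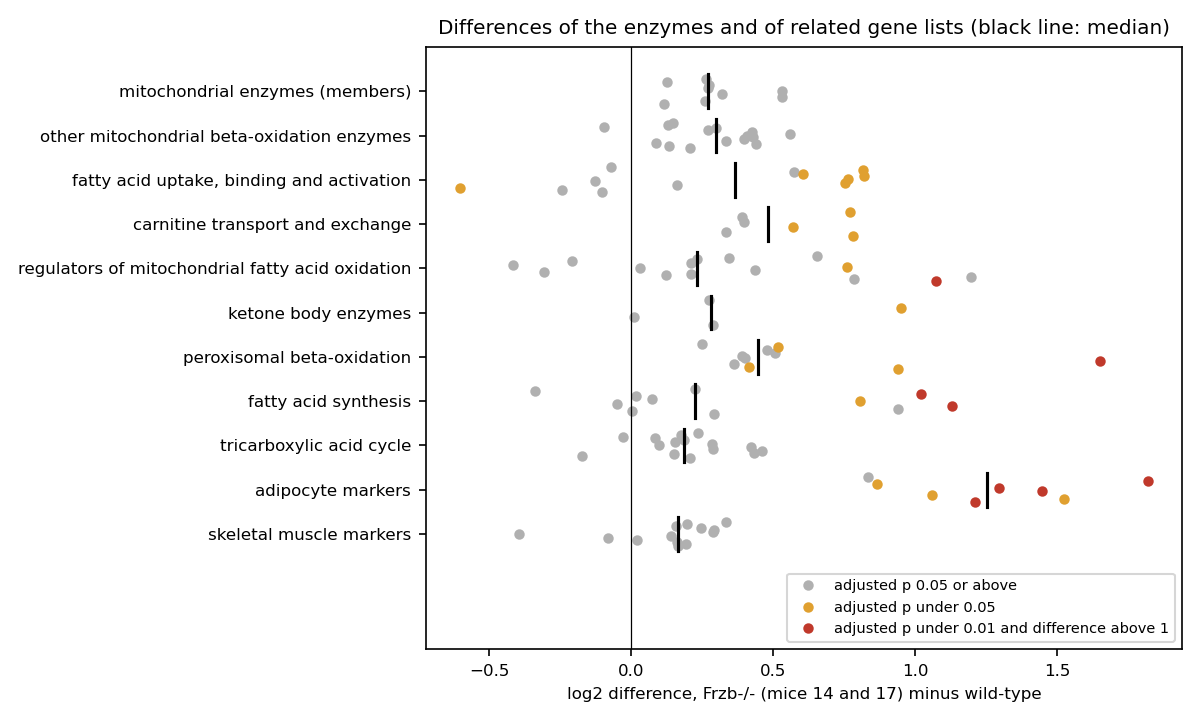
Log2 difference, Frzb-/- (14 and 17) minus wild-type, of each measured gene of the 9 enzymes, of the related pathways and of 2 marker lists, with a black line at each list's median; colours give the limma call. The enzymes, the other β-oxidation genes and the tricarboxylic acid cycle genes hold no coloured point, and the adipocyte markers have a median of 1.25.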

How the data were processed

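RNA of 6 tibial pieces was hybridised to Affymetrix arrays. Per the study's methods, probe sets for controls or without a present call were dropped, and the deposited values are log2 RMA values (submitters' processing notes: affy 1.20.0). The depth of an array is not a count, so the number of mice limits the precision. Genes were named from the platform's 2016 annotation: 25090 probe sets had 1 gene, 677 several and 4851 none. Each gene was read from its brightest probe set (mean of the 6 arrays). Differences were tested with limma 3.58.1 in R 4.3.3 on all 30618 probe sets (two-sided, Benjamini-Hochberg), after a check on simulated data. Calls used the study's thresholds, adjusted p under 0.01 and an absolute log2 difference above 1, and adjusted p under 0.05.

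The members and lists were chosen with earlier results of these data known. The rule named all members, of each pathway list the genes called and the brightest 2, and of each marker list up to 3 called genes and the brightest 1. Acacb was added beside Acaca. Marker lists other than muscle are given as counts or list medians. Each array was a separate mouse, and limma p-values rest on the spread between these mice, drawn toward that of all probe sets. The study does not give the title of the re-genotyped mouse. Its printed differences, made without that mouse, equal those of mice 14 and 17 minus wild-type for Frzb (-3.61), Olfm4 (-4.25) and Mmp8 (-3.53). Promoter windows came from RefSeq (GRCm38.p6). Python 3.11.15 and matplotlib 3.10.9 were used for windows and figures. Alternatives covered the mice included, normalization, centring, moderation, array weights, probe set choice and thresholds.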

Additional observations from a re-analysis of the deposited data

How the results depend on the processing

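By the study's thresholds 0 of 9 enzymes were called in either direction under every alternative run. With all 5 mice and no covariate, 0 were also called at adjusted p under 0.05 with a difference above 0.5. At adjusted p under 0.05, leaving out 1 mouse gave 0 to 1 enzymes higher (Cpt1a without wild-type 9-1) and 0 lower, and the muscle marker covariate, chosen after seeing the data, gave 2 higher. The median difference of the 9 enzymes, 0.27, ranged from 0.13 without wild-type 9-1 and 0.14 without Frzb-/- 17 to 0.42 without wild-type 6-1, where 5 enzymes had an unadjusted p under 0.05, and was 0.02 with all 3 mice labelled Frzb-/-. With all 3, 6 of 9 enzymes stayed positive and 0 probe sets were called over the whole array. Of 126 single results for the enzymes, 120 kept their direction and their side of the study's thresholds and 6 changed sign. With all 3 labelled mice the difference was -0.108 for Acadl, -0.00636 for Acadvl, -0.0393 for Hadha, -0.00270 for Crat, -0.147 for Prkaa2, -0.00677 for Cs and -0.0450 for Acta1. Leaving out 1 mouse gave -0.0651 to 0.296 for Acadl, -0.0172 to 0.266 for Hadha, -0.215 to 0.0214 for Etfb and -0.173 to 0.639 for Prkaa2. Without Frzb-/- 17 it was -0.0651 for Acadl, -0.0172 for Hadha and -0.173 for Prkaa2; without Frzb-/- 14, 0.0214 for Etfb; without wild-type 9-1, -0.0104 for Hadha and -0.126 for Prkaa2; without wild-type 6-1, 0.00273 for Etfb. With the muscle marker covariate Prkaa2 was at -0.0271, and with the mean over probe sets Scd2 was at 0.0493. The cause was not tested. Calls over all probe sets fell from 717 higher and 1558 lower to 97 and 335 without Frzb-/- 17, and to 298 and 676 without wild-type 8-1. No paired analysis was possible because the 5 mice tested share no replicate number across the groups, and with mouse 6 only 1 number, 6, would be shared.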
